A study of Mus musculus with 73 samples.

Results

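Mammary adenocarcinomas of mice with the Brca1 change L1363P (genotype label KB1(L1363P)P) were compared with adenocarcinomas of the KB2P model by RNA sequencing. The tumours were taken by their labels for genotype and histologic type, which gave 3 L1363P tumours (7.2, 26.2 and 52) and 23 KB2P tumours, 26 of the 73 libraries of the series. The series set L1363P tumours of several histologic types beside tumours of the KP, KB1P and KB2P models, with 1 library per tumour. The comparison asks how adenocarcinomas with a BRCA1 that no longer binds PALB2 differ in expression from adenocarcinomas without BRCA2.

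All 26 tumours come from models that lack p53. As known from descriptions of these models, a K14cre transgene, active in mammary and skin epithelium, deletes floxed Trp53 in KP mice, and floxed Brca2 as well in KB2P mice. The L1363P tumours carry a leucine to proline substitution in Brca1 on the p53-deficient background. The sources used here state neither the second Brca1 copy, nor the ages of the animals, nor whether any tumours share an animal. The p-values therefore speak only of the spread among tumours, which was estimated from all 73 libraries of the series. Each of the 26 tumours is labelled as 100% epithelial.

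Homologous recombination repairs DNA double-strand breaks from an intact copy of the sequence. BRCA1 promotes the resection of the broken ends and, through its coiled coil, binds PALB2, which brings BRCA2 to the break, where the strand exchange with the intact copy is prepared. L1363P lies in the coiled coil, so the 2 genotypes interrupt the same pathway at different steps, and mammary tumours with either defect are known for unstable genomes and for sensitivity to platinum drugs and PARP inhibitors.

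The changed residue is set by a Brca1 codon in exon 12 on the minus strand, at chr11:101517386-101517430 of GRCm38 with the flanking codons. The reference sequence is shown because it defines the L1363P group, with the leucine codon CTG in capitals.
Brca1 L1363: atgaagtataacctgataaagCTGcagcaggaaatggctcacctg

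The genotypes were sequenced apart. The first field of the library descriptions, taken as a run, was 5625 for the 3 L1363P tumours and for the 5 KP adenocarcinomas, while the KB2P tumours carried 2459 (9 tumours), 2749 (12 tumours) and 2802 (2 tumours). L1363P and KB2P therefore share no run, and genotype and run cannot be told apart in any value below. Total counts ran from 14761822 to 16207436 in L1363P tumours, from 7325180 to 21818683 in KB2P tumours and from 13103749 to 15458067 in KP tumours. To limit what follows, a gene is called held when it passed edgeR's quasi-likelihood test against all 23 KB2P tumours (Benjamini-Hochberg adjusted p under 0.05 and a log2 fold change of at least 1 in size) and also, in the same direction, against the tumours of run 2459 and those of run 2749 apart. Ribosomal protein genes, pseudogenes, unnamed gene models and genes with close copies elsewhere in the genome were left out of the held genes.

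Some libraries stood out for likeness. KB2P tumours 24 (run 2749) and 26 (run 2802) deviated from their group's median together, with a Pearson correlation of 0.84 across 12103 genes, where the next KB2P pair of 253 reached 0.49. KP adenocarcinoma 90.01A resembled L1363P carcinosarcomas 17 and 4 (0.79 and 0.78), and these 2 carcinosarcomas each other (0.90). The 3 L1363P adenocarcinomas had correlations from -0.33 to -0.20. In a group of 3, subtracting the group's median by itself pushes such correlations below 0. Likeness among these tumours could therefore not be judged. Without KB2P tumour 24 there were 378 held genes and without tumour 26 there was 1 more than the 391 found with both.

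Whole-gene counts of the targeted genes did not separate the genotypes, and they check neither label, since a missense change and the deletion of part of a gene can leave most of a transcript's counts in place. In CPM, counts scaled to library size, with L1363P tumours always in the order 7.2, 26.2 and 52, Brca1 stood at 55.6, 77 and 92.0 and in KB2P tumours between 25.9 and 144.3 with a median of 53.0. Brca2 stood at 33.1, 44.5 and 68.3 CPM in L1363P and between 18.7 and 109.6 CPM (median 44.6) in KB2P. Trp53 stood at 27.1, 25 and 26.5 CPM in L1363P and between 16.5 and 58.6 CPM (median 30.8) in KB2P. Every L1363P value of these 3 genes lay within the KB2P range.

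The BRCA1 partners were no different. Palb2, the bridge to BRCA2, stood at 23.6, 10.3 and 17.0 CPM in L1363P and between 9.18 and 30.3 CPM (median 14.4) in KB2P. Bard1, the obligate partner of BRCA1, stood at 27.8, 42.3 and 55.0 CPM against 18.4 to 113.2 CPM (median 34.3). None of the 5 genes passed the test of edgeR, limma or DESeq2, nor had an unadjusted p under 0.05 by edgeR, with log2 fold changes of 0.32 (SE 0.28, adjusted p = 0.511, edgeR) for Brca1, 0.07 (SE 0.33, 0.925) for Brca2, 0.14 (SE 0.27, 0.786) for Palb2, -0.21 (SE 0.27, 0.660) for Trp53 and -0.14 (SE 0.43, 0.876) for Bard1. The sign changed for Palb2 (-0.17), Bard1 (0.08) and Brca2 (-0.26) when 1 L1363P tumour was left out, tumour 7.2 for the first 2 genes and tumour 52 for Brca2.

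Of 18492 genes tested, 1683 (9.1%) passed at an adjusted p under 0.05, of which 816 (4.41%) were higher and 867 (4.69%) lower in L1363P. The median log2 fold change of all genes tested was -0.13. The 9 tumours of run 2459 alone gave 2007 calls (10.9%), the 12 tumours of run 2749 alone gave 1425 (7.71%), and run 2749 against run 2459, within KB2P, gave 1250 (6.76%). After the exclusions 391 of 13859 genes (2.82%) were held, 142 of them higher (1.02%) and 249 lower (1.8%). The fit without tumour 7.2 held 209 genes, without 26.2 it held 281 and without 52 it held 252, and the corresponding totals of called genes were 863, 963 and 899. Fitting the 26 libraries alone gave 924 called and 233 held genes.

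The higher and the lower genes were built differently over the 3 tumours. Among the 142 held higher genes, 18 lay above all 23 KB2P tumours in 3 of 3 L1363P tumours, 48 in 2, 75 in 1 and 1 in none. Among the 249 held lower genes, 115 lay below all 23 in 3 of 3, 79 in 2, 31 in 1 and 24 in none. Over all genes tested, 3 of 3 lay above all 23 KB2P tumours for 209 genes (1.13%) and below for 297 (1.61%). Most of the held higher genes thus lay above KB2P in 1 or 2 tumours, while on the lower side genes below KB2P in 3 of 3 tumours were the most frequent class, at 115 of 249.

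In the KP adenocarcinomas of the same run the held lower genes sat near the L1363P level, and the held higher genes nearer to it than in KB2P. The held higher genes had a median log2 fold change of 1.72 against KB2P and of 0.51 against KP, and the held lower genes of -1.53 and -0.15. These comparisons share the L1363P tumours. L1363P against KP, with 3 tumours against 5, gave 12 called genes of 18492 (0.0649%), 54 without KP tumour 131.03A and 15 without 90.01A. The share of a change that goes with run and the share that goes with genotype cannot be told apart.

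**Figure D1:**
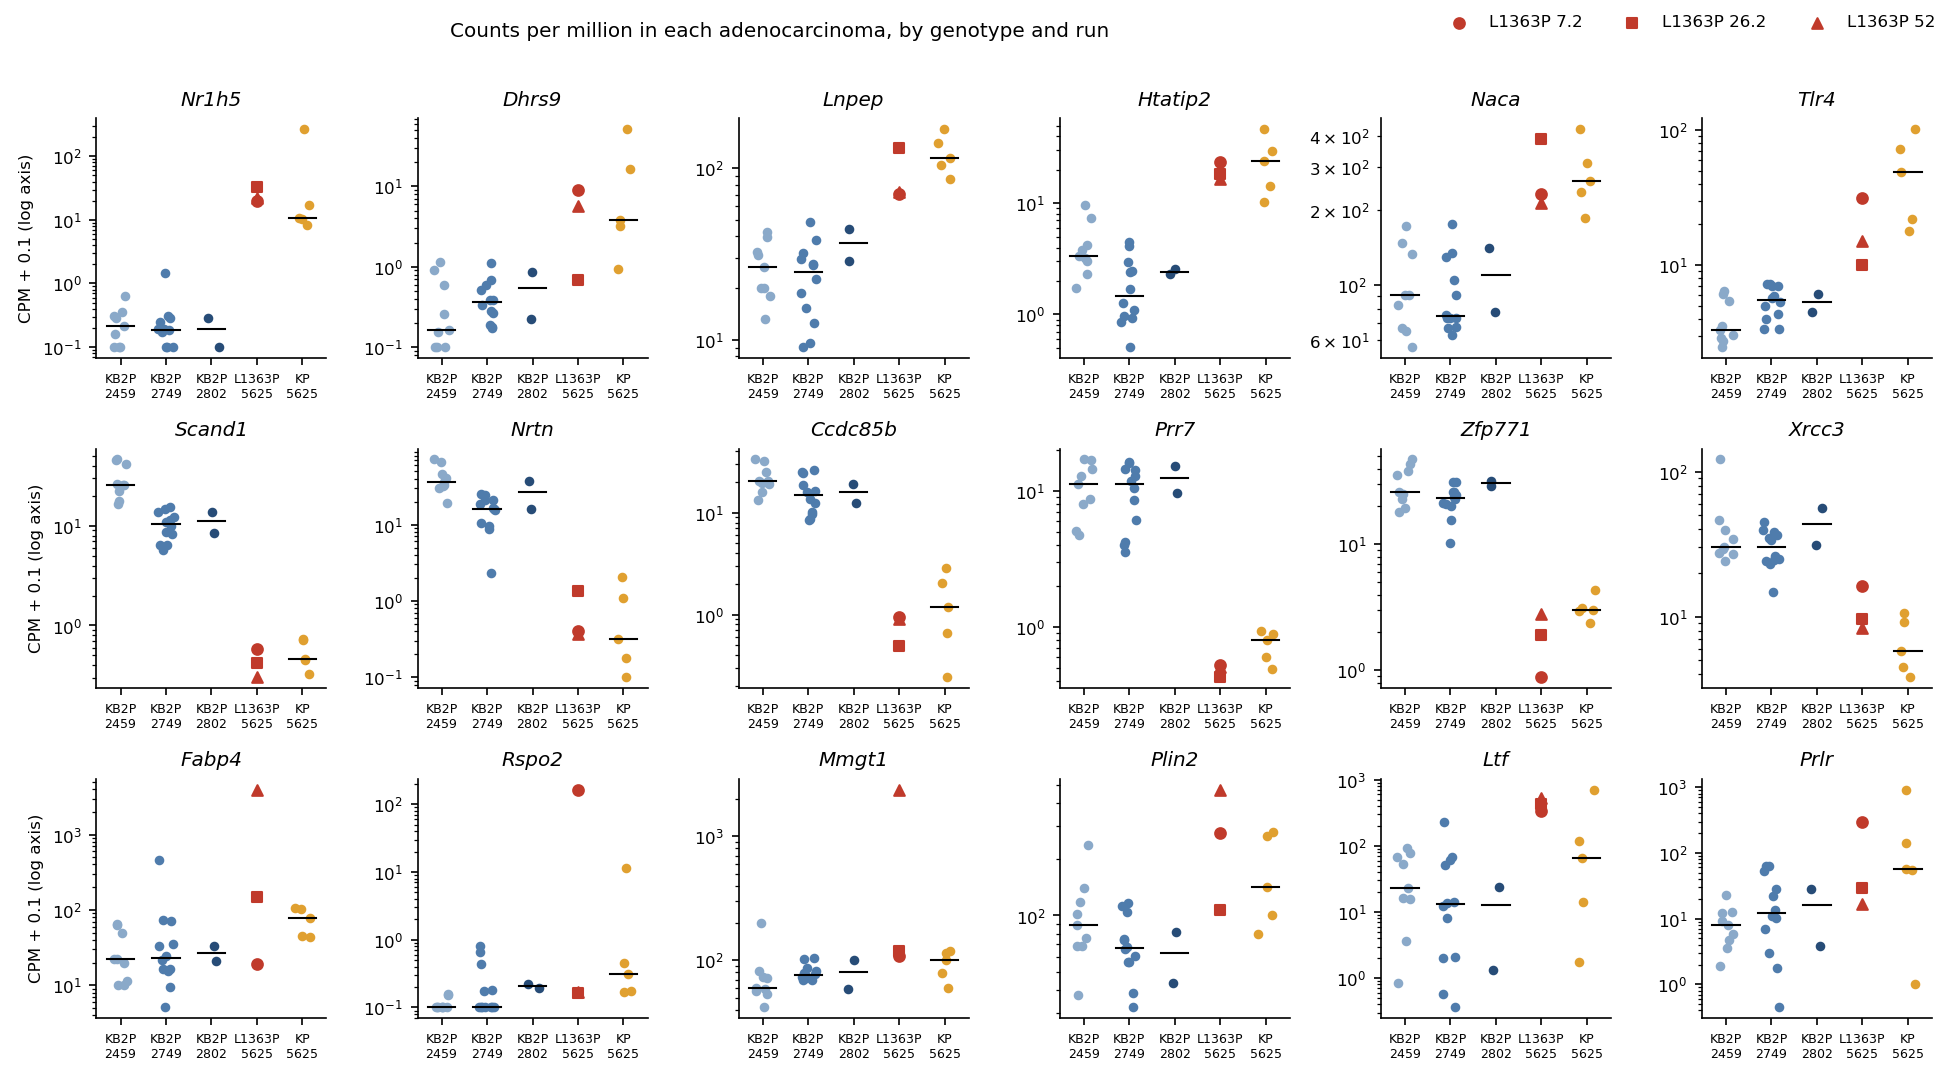
CPM of 18 genes in each adenocarcinoma (log axis, 0.1 added), by genotype and run, with black bars at the medians of the KB2P runs and of KP and separate symbols for the 3 L1363P tumours. Nr1h5 lay between 20.0 and 32.2 CPM in L1363P and at most at 1.34 CPM in KB2P, Scand1 lay at or below 0.482 CPM in L1363P and at least at 5.60 CPM in KB2P, and Rspo2, Mmgt1 and Fabp4 were high in 1 L1363P tumour each.

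Genes higher in all 3 tumours had varied functions. Nr1h5, a nuclear receptor for sterols of the farnesoid X receptor family, stood at 20.0, 32.2 and 22.3 CPM in L1363P and between 0 and 1.34 CPM (median 0.0927) in KB2P. The groups did not overlap, and the log2 fold change was 7.17 (SE 0.60, adjusted p = 4.07e-15, edgeR). In KP the gene stood between 8.19 and 265.6 CPM with a median of 10.6.

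Htatip2, a short-chain dehydrogenase-like protein linked to the suppression of metastasis, stood at 23.4, 18.2 and 16.3 CPM against 0.409 to 9.49 CPM (median 2.37). Lnpep, the aminopeptidase that cleaves oxytocin, stood at 71.0, 130.9 and 72.5 CPM against 8.97 to 48.4 CPM (median 27.0). Naca, a chaperone subunit that meets nascent chains at the ribosome, stood at 232.8, 389.7 and 213.4 CPM against 55.9 to 175.7 CPM (median 83.0). In all 3 genes the lowest L1363P tumour lay above the highest KB2P tumour. The log2 fold changes were 2.76 (SE 0.35, adjusted p = 1.13e-08) for Htatip2, 1.80 (SE 0.34, 1.36e-04) for Lnpep and 1.51 (SE 0.25, 6.14e-06) for Naca by edgeR. KP medians were 23.8, 114.9 and 261.9 CPM.

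Innate immune receptors and a stress chaperone were also above every KB2P tumour. Tlr4, the receptor for bacterial lipopolysaccharide, stood at 31.2, 9.86 and 15 CPM against 2.37 to 7.19 CPM (median 4.90), a log2 fold change of 1.97 (SE 0.34, adjusted p = 2.60e-05, edgeR). Il1rl1, the interleukin-33 receptor, stood at 16.7, 2.66 and 40.6 CPM against 0 to 2.1 CPM (median 0.610), and the log2 fold change was 4.86 (SE 0.90, adjusted p = 8.50e-05). Cryab, a small heat shock protein, stood at 41.8, 27.0 and 100.7 CPM against 2.15 to 26.3 CPM (median 13.5), with tumour 26.2 only just outside the KB2P range. Its log2 fold change of 2.00 (SE 0.47, adjusted p = 2.17e-03) fell to 1.29 without tumour 52, with an adjusted p of 0.215. Tlr4, Il1rl1, Cryab, Nr1h5 and Lnpep were chosen after their values were seen. The KP medians were 49.0 CPM for Tlr4, 8.98 CPM for Il1rl1 and 75.9 CPM for Cryab.

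C1qtnf3, a secreted adipokine, stood at 24.9, 14.6 and 18.2 CPM against 0.0863 to 7.86 CPM (median 2.96) in KB2P, with no overlap and a log2 fold change of 2.63 (SE 0.63, adjusted p = 3.13e-03, edgeR). C1qtnf3 (chr15:10952332-10980150) lies between the ends of the raised stretch of tumour 7.2 described below. A lysosomal and a secretory gene chosen after their values were seen had narrower gaps. Glb1, the lysosomal beta-galactosidase, stood at 82.5, 63.9 and 59.5 CPM against a KB2P maximum of 56.5 CPM, and Tmed5, a cargo receptor of the early secretory pathway, at 90.9, 154.8 and 120.0 CPM against a KB2P maximum of 84.2 CPM. Tmed5 had a log2 fold change of 1.30 (adjusted p = 4.75e-05). That of Glb1 was 1.15 (adjusted p = 2.08e-03), and it was 1.00 with an adjusted p of 0.0565 without tumour 7.2. Across the 15 other settings tried, Nr1h5, Htatip2, Lnpep, Naca, Tlr4, Il1rl1, C1qtnf3 and Tmed5 passed the test against KB2P in every one. Not all of them stayed held. Tlr4 was not held without tumour 7.2, Il1rl1 not without tumour 52, and C1qtnf3 not in any fit without an L1363P tumour. C1qtnf3 and Tmed5 were not held with the offset for GC content given below.

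Further genes were high in 2 tumours or in 1. Lepr, the leptin receptor, stood at 38.8, 149.2 and 1.01 CPM against 0.571 to 42.1 CPM (median 2.05), with 1 tumour above the KB2P range and 1 near its median. Pon3, a paraoxonase, stood at 40.9, 49.9 and 6.21 CPM against 1.74 to 21.6 CPM. Nav3, a microtubule-binding neuron navigator, stood at 38.1, 3.63 and 45.5 CPM against 0.818 to 16.9 CPM. The log2 fold changes were 3.80 (SE 0.78, adjusted p = 3.92e-04), 2.35 (SE 0.44, 9.53e-05) and 2.79 (SE 0.60, 8.53e-04) by edgeR, and without tumour 26.2 that of Lepr was 2.14 with an adjusted p of 0.206. Fmo2, a flavin monooxygenase, stood at 131.9, 59.1 and 1.08 CPM against 0.856 to 57.1 CPM, a log2 fold change of 2.91 (SE 0.75, adjusted p = 6.04e-03) that was 1.83 (adjusted p = 0.288) without tumour 7.2. Alox15, which makes lipoxygenase products of arachidonic acid and was chosen after its values were seen, stood at 3.31, 26.3 and 48.2 CPM against 0.222 to 8.19 CPM, a log2 fold change of 3.89 (SE 0.71, adjusted p = 6.04e-05).

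Scand1, Nrtn and Prr7, lower in all 3 tumours, had few counts there. Scand1, a SCAN domain protein without zinc fingers, stood at 0.482, 0.324 and 0.202 CPM in L1363P and between 5.60 and 46.4 CPM (median 13.8) in KB2P. The groups did not overlap, with a log2 fold change of -5.70 (SE 0.79, adjusted p = 1.26e-07, edgeR), and KP tumours stood between 0.225 and 0.637 CPM. Nrtn, the neurotrophic factor neurturin, stood at 0.301, 1.23 and 0.270 CPM against 2.24 to 71.0 CPM (median 21.1). Prr7, a proline-rich membrane protein, stood at 0.421, 0.324 and 0.405 CPM against 3.46 to 16.9 CPM (median 11.1). Both fell without overlap, Nrtn by 5.45 (SE 1.00, adjusted p = 7.03e-05) and Prr7 by 4.76 (SE 0.78, adjusted p = 6.51e-06) on the log2 scale. These 3 genes rested on 16, 28 and 18 counts over the 3 L1363P tumours together.

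The first 60 coding bases of 3 lower and 3 higher genes in GRCm38 are shown because base composition ran along with the direction of change, with each CG dinucleotide in capitals. Scand1 (chr2:156312289-156312348, minus strand, exon 2), Nrtn (chr17:56752418-56752477, minus strand, exon 2) and Prr7 (chr13:55472025-55472084, plus strand, exon 2) were lower, and their 60 bases held 78.3%, 63.3% and 58.3% G and C. Nr1h5 (chr3:102958324-102958383, minus strand, exon 2), Il1rl1 (chr1:40440750-40440809, plus strand, exon 1) and Htatip2 (chr7:49759214-49759273, plus strand, exon 1) were higher, at 46.7%, 43.3% and 65.0%. Htatip2, with 6 CG dinucleotides in this stretch, was higher although its first bases were as rich in G and C as those of the lower genes. Over the longest transcript, the measure used below, Htatip2 had 53.6% G and C. Scand1, Nrtn and Prr7 had 68.38%, 72.83% and 69.02% by that measure.
Scand1: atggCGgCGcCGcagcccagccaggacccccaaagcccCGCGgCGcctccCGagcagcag
Nrtn: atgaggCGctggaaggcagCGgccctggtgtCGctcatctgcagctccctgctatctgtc
Prr7: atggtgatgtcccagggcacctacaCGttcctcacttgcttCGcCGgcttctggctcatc
Nr1h5: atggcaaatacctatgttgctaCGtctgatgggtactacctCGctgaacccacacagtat
Il1rl1: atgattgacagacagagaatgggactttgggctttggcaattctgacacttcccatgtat
Htatip2: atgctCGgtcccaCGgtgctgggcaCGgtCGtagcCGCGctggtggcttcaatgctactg

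Ccdc85b, a coiled-coil protein, and the zinc finger gene Zfp771 were low in the same way. Ccdc85b stood at 0.843, 0.389 and 0.810 CPM against 8.37 to 33.1 CPM (median 18.4), a log2 fold change of -4.72 (SE 0.64, adjusted p = 6.56e-08, edgeR). Zfp771 stood at 0.783, 1.82 and 2.7 CPM against 10.2 to 47.1 CPM (median 25.1), a log2 fold change of -3.90 (SE 0.39, adjusted p = 2.00e-12). In KP the 2 genes stood between 0.143 and 2.76 CPM and between 2.28 and 4.23 CPM. All 3 L1363P and all 5 KP tumours were thus below every KB2P tumour for both genes.

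Several genes of mitochondrial proteins were among the lower genes. Mrps34, a protein of the small mitochondrial ribosomal subunit, stood at 0.421, 0.584 and 0.877 CPM against 2.38 to 19.3 CPM (median 8.02), and Endog, the mitochondrial endonuclease G, at 0.301, 0.519 and 0.675 CPM against 1.81 to 9.44 CPM (median 3.89). Their log2 fold changes were -3.84 (SE 0.73, adjusted p = 1.20e-04, edgeR) and -3.21 (SE 0.61, 1.23e-04). Romo1, which modulates reactive oxygen species, stood at 8.55, 8.95 and 9.92 CPM against 27.1 to 91.2 CPM (median 47.8) and fell by 2.46 on the log2 scale (SE 0.36, adjusted p = 4.61e-07). A further 3 genes did not overlap between the groups, namely Mrps12 of the mitochondrial ribosome, which fell by 1.74, Ndufaf8, a complex I assembly factor, which fell by 2.13, and Cox11, a copper chaperone of cytochrome oxidase, which fell by 1.82. Romo1, Mrps12, Ndufaf8 and Cox11 were chosen after their values were seen. Of 23 nuclear genes of oxidative phosphorylation tested, 2 were higher and 3 lower, which is 5 of 23 against 9.1% of all genes tested, with a median log2 fold change of -0.13, equal to that of all genes tested.

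Within that list Uqcrq, a subunit of complex III, stood at 27.4, 31.6 and 33.2 CPM against 29.6 to 192.9 CPM (median 80.5), and Ndufa2, of complex I, at 40.2, 23.3 and 34.0 CPM against 40.9 to 277.8 CPM (median 81.9). Ndufa2 lay just below the whole KB2P range and Uqcrq partly within it, with log2 fold changes of -1.44 (SE 0.32, adjusted p = 1.16e-03, edgeR) for Uqcrq and -1.43 (SE 0.34, 2.92e-03) for Ndufa2. Without tumour 26.2 Ndufa2 was at -1.24 with an adjusted p of 0.0590. Atp5j, a coupling subunit of ATP synthase, was higher through 1 tumour, at 115.7, 165.6 and 557.2 CPM against 52.7 to 179.4 CPM. Its log2 fold change of 1.17 (SE 0.23, adjusted p = 1.93e-04) was 0.18 (adjusted p = 0.758) without tumour 52.

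Other genes of the lower side had varied functions. Kmt2d, a histone H3 lysine methyltransferase and tumour suppressor, stood at 205.6, 290.6 and 172.1 CPM against 288.6 to 1160 CPM (median 550.0), and fell by 1.38 on the log2 scale (SE 0.31, adjusted p = 1.62e-03, edgeR). H1fx, a linker histone, stood at 4.27, 1.30 and 0.945 CPM against 4.33 to 66.8 CPM (median 23.2), a log2 fold change of -3.51 (SE 0.85, adjusted p = 3.38e-03). Rnaseh2c, a subunit of the enzyme that removes ribonucleotides from DNA, stood at 6.56, 5.71 and 8.77 CPM against 12.1 to 77.1 CPM (median 34.7), a log2 fold change of -2.40 (SE 0.36, adjusted p = 1.17e-06). Rnaseh2c and the next 2 genes were chosen after their values were seen. Nr2f6, an orphan nuclear receptor, stood at 3.37, 2.66 and 11.6 CPM against 22 to 85.8 CPM, and Crocc, the ciliary rootlet protein, at 5.24, 5.64 and 3.64 CPM against 14.4 to 68.0 CPM, with log2 fold changes of -2.70 and -2.94. All of these L1363P values except that of Kmt2d in tumour 26.2 lay below every KB2P tumour.

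Of the 15 genes with the largest falls, 8 lost their call in at least 1 fit without an L1363P tumour. These were Igsf23, Rhpn1, Amn, Slc8a2, Hif3a, Ccdc40 and Tmem121, with log2 fold changes between -5.36 and -3.24, and H1fx, which had an adjusted p of 0.0517 without tumour 52 and was at -1.62 (adjusted p = 0.139, edgeR) with the offset for GC content given below. The falls themselves stayed nearly as large or grew in the fits that lost the call. Igsf23 was at -5.02 and -5.35 without tumours 7.2 and 26.2, Rhpn1 at -4.16 and -4.45 without tumours 7.2 and 52, and Hif3a between -4.29 and -3.61 over the 3 fits. H1fx was at -3.15 without tumour 52, and the lowest and highest log2 fold changes over the 3 fits were -4.97 and -3.65 for Amn, -4.44 and -3.69 for Slc8a2, -4.32 and -3.16 for Ccdc40 and -3.59 and -2.87 for Tmem121. The same offset gave Kmt2d -0.93 with an adjusted p of 0.0673. The immediate early gene Ier2, at 19.7, 16.3 and 33.5 CPM against 26.8 to 142.7 CPM, had a log2 fold change of -1.53 (SE 0.39, adjusted p = 5.79e-03, edgeR) and of -0.79 (adjusted p = 0.190) with the offset, and it did not pass without tumour 7.2 or 26.2 (adjusted p = 0.0665 and 0.0798). Scand1, Nrtn, Prr7, Ccdc85b, Zfp771, Mrps34 and Endog passed in all 15 other settings, with Zfp771 at -2.35 under the offset. Reads of Scand1, Ccdc85b, Endog, Romo1, Nr2f6, Rnaseh2c, Cox11, Ndufa2 and Mrps34 can overlap those of a gene on the opposite strand, and the sources used here do not say whether strand was used in counting. Mrps34 also overlaps Nme3 on the same strand.

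GC content moved with the whole comparison. The held lower genes had a median GC content of 58.9% in their longest transcript and the held higher genes of 45.0%, against 50.1% over all genes tested, and their median transcript lengths were 2039 and 3783 bases against 2784. In 10 bins of genes ordered by GC content, the median log2 fold change against KB2P went from 0.30 in the lowest bin to -0.80 in the highest. Of the 249 held lower genes 145 were in the highest bin, beside 2 held higher genes, while the lowest bin had 34 higher and 4 lower. Run 2749 against run 2459 within KB2P went from 0.24 to -0.27, and L1363P against KP in 1 run from -0.09 to 0.00. The course with GC content was present in L1363P against KB2P and between the 2 KB2P runs, and was near flat between L1363P and KP. Run and genotype coincide in the first of these comparisons, and what the course goes with was not tested.

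**Figure D2:**
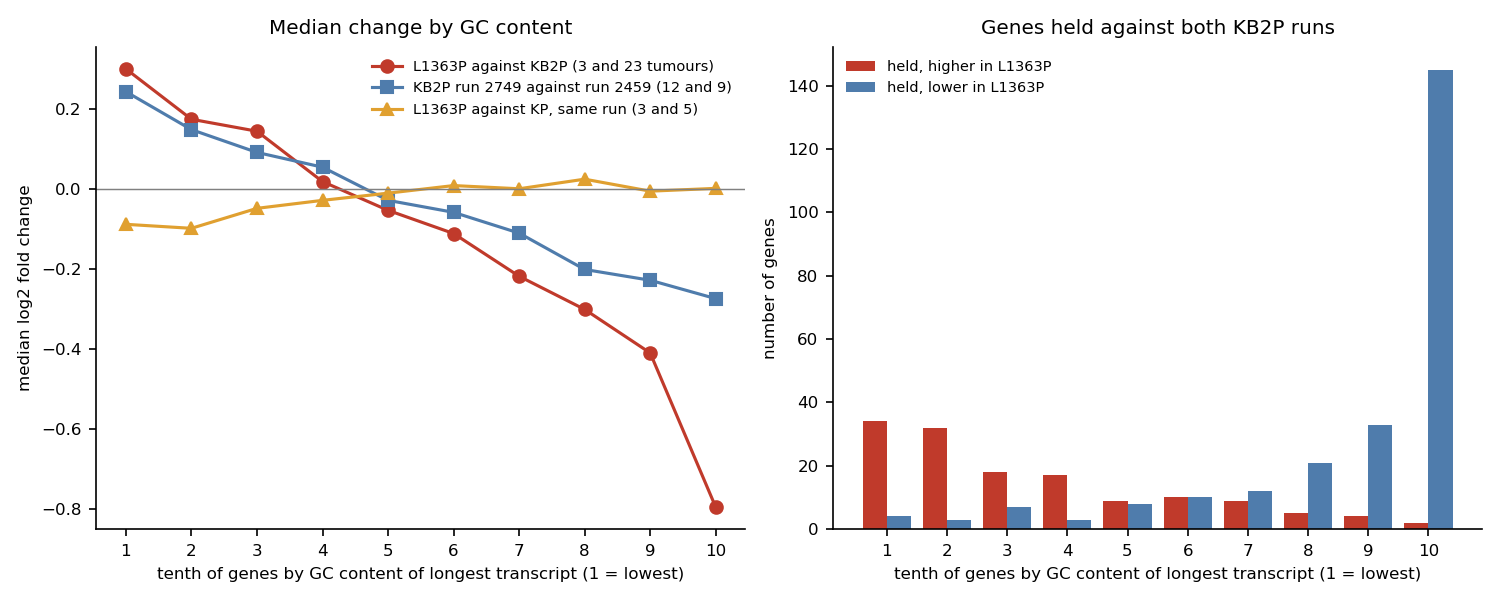
Left, median log2 fold change in 10 bins of genes ordered by the GC content of the longest transcript, for L1363P against KB2P, KB2P run 2749 against run 2459, and L1363P against KP. Right, number of held genes per bin, where the highest bin had 145 lower and 2 higher genes and the lowest 34 higher and 4 lower.

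With an offset that removed the course of each library with GC content, an alternative chosen after the data were seen, 1058 genes were called, 632 higher and 426 lower, so that 59.7% of calls were higher against 48.5% without it. The held genes were then 171, 95 higher and 76 lower, and 80 of the 142 higher and 73 of the 249 lower genes were among them. A group of 38 genes was held in the fit as planned, without each L1363P tumour in turn, and with the offset. The 6 higher genes of this group included Nr1h5, Dhrs9, Htatip2, Lnpep and Naca, and the 32 lower ones included Scand1, Nrtn, Prr7, Ccdc85b, Zfp771, Mrps34, Endog, Romo1, Rnaseh2c, Nr2f6 and Crocc. Also among the 32 were Mir3091, Snord55, Snord49b and mt-Ts2, genes of small RNAs, and Ifi44l. All of these had few counts, with KB2P medians of 1.11, 0.331, 0.741, 0.472 and 0.574 CPM in that order. Dhrs9, a retinol dehydrogenase, stood at 8.85, 0.584 and 5.53 CPM against 0 to 1.06 CPM (median 0.185), with 2 of 3 tumours above the KB2P range and a log2 fold change of 3.92 (SE 0.67, adjusted p = 1.89e-05, edgeR). The largest fall of this group, by 9.33 on the log2 scale (SE 1.72, adjusted p = 7.73e-05), was that of BC018473, an antisense transcript, at 0.0602, 0.259 and 0 CPM against 6.34 to 363.1 CPM in KB2P and 0 to 0.356 CPM in KP.

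Of 32 homologous recombination genes tested, 1 was higher and 2 were lower, near the 9.1% of all genes tested, with a median log2 fold change of 0.05. Xrcc3, a recombination factor that works in a complex with RAD51C, stood at 16.1, 9.53 and 8.23 CPM against 14.7 to 121.4 CPM (median 31.0) in KB2P. Tumours 26.2 and 52 lay below all KB2P tumours, and Xrcc3 fell by 1.68 on the log2 scale (SE 0.35, adjusted p = 6.02e-04, edgeR), with 3.71 to 10.4 CPM in KP. It passed in all 15 other settings but was not held without tumour 26.2 or without tumour 52, and its gene overlaps Klc1 on the opposite strand. The other lower gene, the structure-specific nuclease gene Mus81, has a close copy by the rule used and was at -0.82 (adjusted p = 0.0328). Brip1, the BRCA1-associated helicase, was the gene called higher, at 27.7, 44.5 and 44.6 CPM against 7.00 to 42.7 CPM (median 18.0), with a log2 fold change of 0.92 (SE 0.31, adjusted p = 0.0438) that did not hold against run 2749 (adjusted p = 0.132) or without any 1 of the 3 L1363P tumours.

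Rad51c and Rif1 had log2 fold changes above 0 without passing the test. Rad51c, the partner of Xrcc3, stood at 11.7, 18.7 and 23.1 CPM against 4.18 to 18.1 CPM (median 8.80), and 2 of 3 tumours lay above KB2P, yet its log2 fold change of 0.85 (SE 0.35) had an adjusted p of 0.114 by edgeR. Rif1, which opposes resection downstream of 53BP1, stood at 183.4, 201.7 and 184.1 CPM against 59.6 to 205.7 CPM (median 120.9), at 0.68 (SE 0.26, adjusted p = 0.0875).

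Of 15 Fanconi anaemia genes 1 was called, and it was lower, against 9.1% of all genes tested called in either direction. This was Faap100, of the core complex, at 27.2, 19.8 and 31.4 CPM against 35.5 to 124.5 CPM (median 53.4), below every KB2P tumour in 3 of 3, with a log2 fold change of -1.18 (SE 0.33, adjusted p = 0.0121, edgeR). It was not held (adjusted p = 0.0697 against run 2749), did not pass without tumour 7.2 or 26.2, and the GC offset left -0.40 with an adjusted p of 0.463. Of 23 genes of end joining and resection control, 1 was higher and 1 lower, near the 9.1% of all genes tested, and the list median was -0.01. They were the Schlafen gene Slfn9 (2.76) and Schip1 (-1.28), which encodes a schwannomin-interacting protein and no end joining factor, both with close copies. Of 17 checkpoint genes 2 were higher and 2 lower, which is 4 of 17 against 9.1% of all genes tested, with a list median of 0.40. The 2 lower ones, H2afx and Rnf8, have close copies.

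Atm, the kinase that signals double-strand breaks, stood at 125.2, 60 and 73.4 CPM against 16.1 to 83.4 CPM (median 41.8). Tumour 7.2 alone lay above the KB2P range. The log2 fold change of 1.01 (SE 0.29, adjusted p = 0.0160, edgeR) was held, but it was 0.64 (adjusted p = 0.327) without tumour 7.2 and 0.74 (adjusted p = 0.130) with the GC offset. Rad1, of the checkpoint clamp, stood at 64.8, 29.0 and 13.7 CPM against 14.9 to 40.8 CPM, and its log2 fold change of 0.76 (adjusted p = 0.0160) was 0.02 (adjusted p = 0.981) without tumour 7.2, in which its chromosome region was raised as described below.

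**Figure D3:**
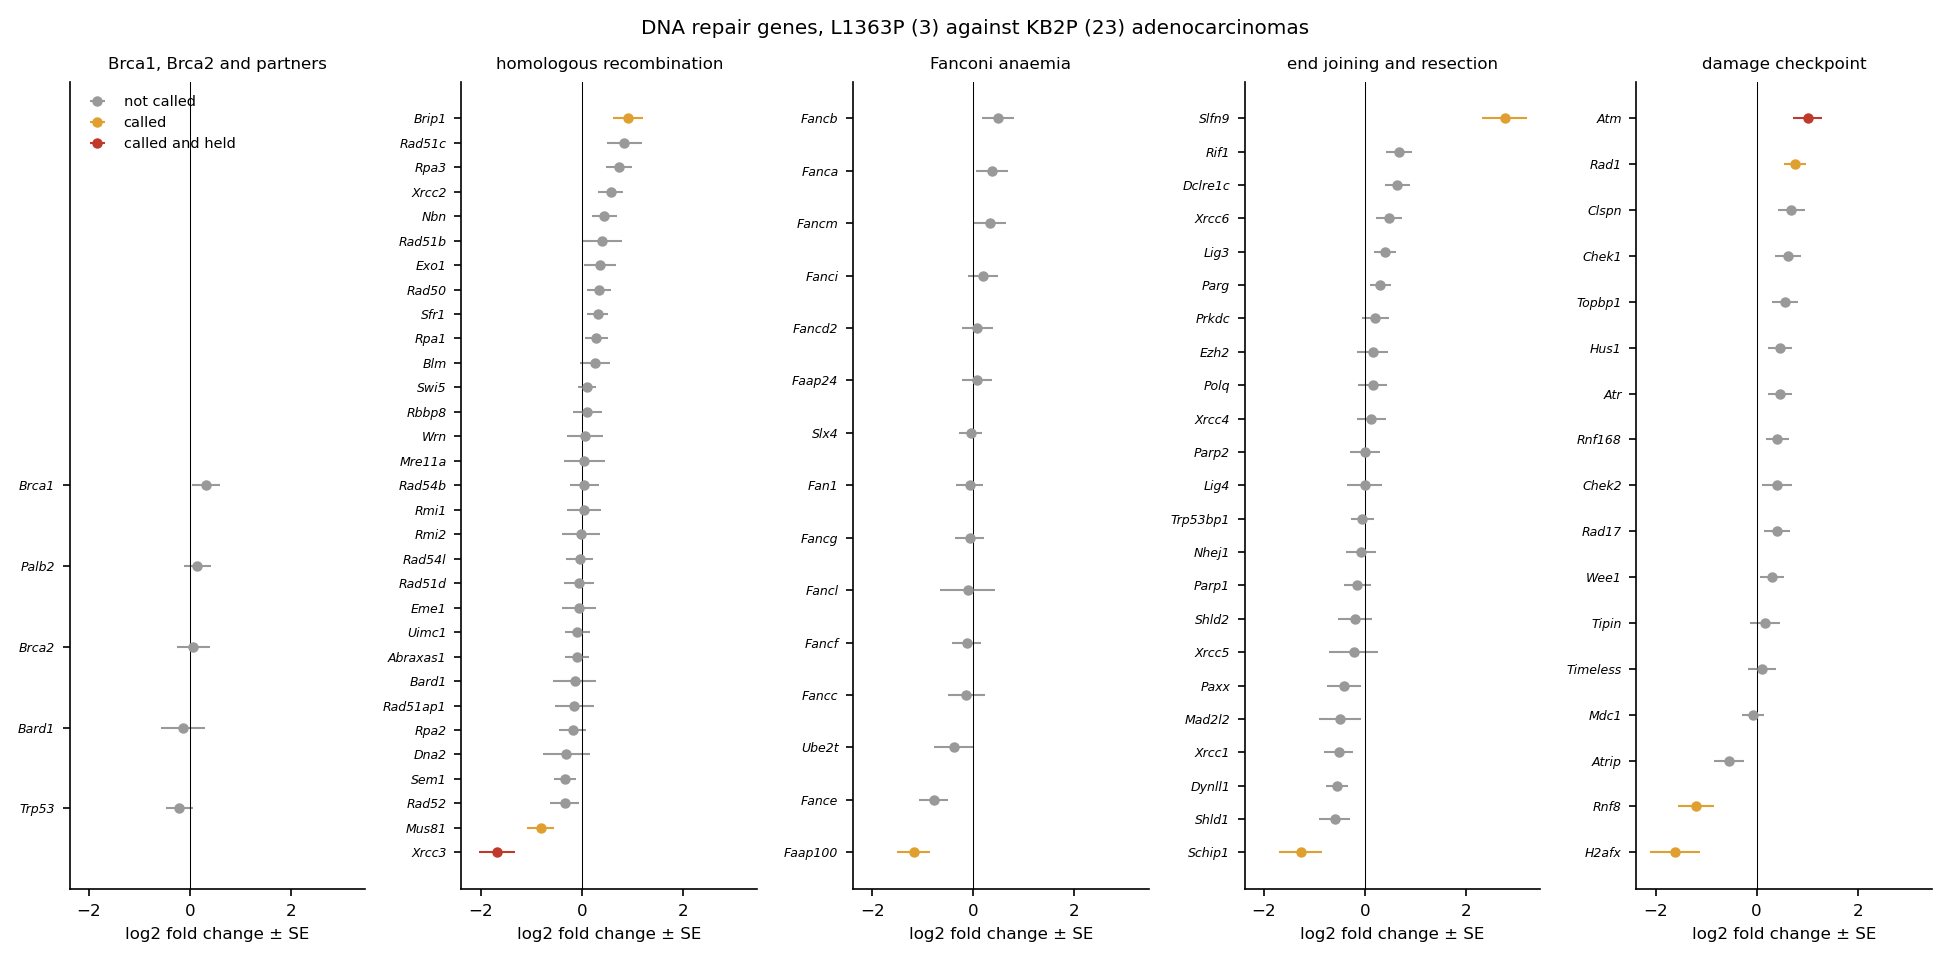
Log2 fold changes (points, with SE as bars) of L1363P against KB2P for the DNA repair lists, grey where the test was not passed, orange where it was and red where the gene was also held. Of these genes Xrcc3 (-1.68) and Atm (1.01) were held, and Brca1, Brca2, Palb2, Trp53 and Bard1 were not called.

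Of 20 p53 targets 1 was higher and 1 lower, near the 9.1% of all genes tested, with a list median of -0.36. Ccng1, cyclin G, stood at 67.8, 72.4 and 88.4 CPM against 30.6 to 78.0 CPM with a log2 fold change of 0.62 (adjusted p = 0.0490, edgeR), and Bbc3, which encodes the death factor PUMA, at 3.37, 2.08 and 6.82 CPM against 3.84 to 28.1 CPM with -1.48 (adjusted p = 0.0367). Neither was held or passed without tumour 7.2 or 26.2, and under the GC offset they were at 0.31 (adjusted p = 0.468) and -0.32 (adjusted p = 0.730). Of 19 proliferation genes none was called by edgeR, limma or DESeq2 (1 had an unadjusted p under 0.05 by edgeR), their median was -0.01, and their summed level of 2780, 3591 and 3809 CPM lay within the KB2P range of 2253 to 4839 CPM. Of 31 DNA replication genes 2 were called, both higher, against 4.41% of all genes tested. These were Pcna (0.99) and Cdc6 (0.87), both with close copies, and the list median was 0.21.

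Milk and secretory genes were called higher more often than genes at large. Of 14 genes 5 were higher, against 4.41% of all genes tested, and none was lower, with a median log2 fold change of 2.46, and their summed level was 2183, 1408 and 4653 CPM against 145 to 1978 CPM (median 495.8) in KB2P. Tumours 7.2 and 52 lay above the KB2P range of the sum and tumour 26.2 within it, and KP tumours ranged from 678.7 to 4683 CPM. Ltf, the iron-binding lactoferrin, stood at 341.6, 425.6 and 521.4 CPM against 0.259 to 232.7 CPM (median 15.8), above every KB2P tumour in 3 of 3. The log2 fold change of 3.55 (SE 1.07, adjusted p = 0.0230, edgeR) was not held (adjusted p = 0.0930 against run 2459 and 0.0792 against run 2749). Without tumour 7.2, 26.2 or 52 the log2 fold change of Ltf stayed at 3.70, 3.56 or 3.39, with an adjusted p of 0.0618, 0.0725 or 0.102. In bulk tumours, more cells that make milk proteins and more RNA per cell cannot be told apart.

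Plin2, the coat protein of lipid droplets, stood at 276.3, 107.4 and 470.8 CPM against 32.1 to 239.2 CPM (median 74.2) and was held, with a log2 fold change of 1.77 (SE 0.35, adjusted p = 2.20e-04, edgeR) that was 1.20 (adjusted p = 0.0924) without tumour 52. Csn1s2a, a casein, was held through 1 tumour, at 0.783, 40.9 and 0.472 CPM against at most 0.463 CPM. A log2 fold change of 7.49 (SE 1.26, adjusted p = 1.15e-05) was 3.03 (adjusted p = 0.348) without tumour 26.2. Lalba, a subunit of lactose synthase, stood at 8.49, 5.58 and 0 CPM against 0 to 4.73 CPM, at 3.17 (adjusted p = 0.0376), and Xdh, which coats milk fat globules, at 117.2, 96.3 and 36.1 CPM against 8.28 to 130.5 CPM, at 1.45 (adjusted p = 0.0381). Lalba and Xdh were not held and did not pass without tumour 7.2 or without tumour 26.2. The milk genes were thus raised in different tumours, Csn1s2a in 26.2 and Plin2 most in 52.

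Of 21 epithelial genes 2 were higher, Krt7 and Krt8, against 4.41% of all genes tested. Krt7, a keratin of simple glandular epithelium, stood at 32.8, 57.4 and 1022 CPM against 0.173 to 149.0 CPM (median 14.4), with only tumour 52 above the KB2P range, and its log2 fold change of 3.45 (SE 0.81, adjusted p = 2.33e-03, edgeR) was 0.41 (adjusted p = 0.886) without that tumour. Krt8, another keratin of simple epithelia, has close copies and stood at 417.1, 211.1 and 1851 CPM against 0.259 to 605.6 CPM. Of 20 luminal and hormone genes 2, Krt8 again and Prlr, were called higher, against 4.41% of all genes tested. Prlr, the prolactin receptor, stood at 295.2, 29.6 and 16.5 CPM against 0.345 to 64.2 CPM, and its 2.75 (adjusted p = 0.0304) was 0.45 (adjusted p = 0.874) without tumour 7.2. Summed epithelial markers stood at 4627, 3359 and 10479 CPM against 246.4 to 7000 CPM. All of these tumours carry the same label of 100% epithelial, so the sum does not check the label. None of 18 basal or 15 squamous genes was called by edgeR, with 1 and 3 at an unadjusted p under 0.05, and DESeq2 called 0 and 1 of them and limma none.

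Of the fat cell and lipid genes described here, Fabp4 was above the KB2P range in 1 tumour and Pparg in 2. Fabp4, the fatty acid binding protein of adipocytes, macrophages and capillaries, stood at 19.1, 147.5 and 3933 CPM against 4.97 to 458.8 CPM (median 22.1), with tumour 52 far above the rest and the other two within the KB2P range. The log2 fold change of 4.83 (SE 0.67, adjusted p = 1.38e-07, edgeR) was 0.80 (adjusted p = 0.698) without tumour 52. Pparg, the nuclear receptor that drives fat cell differentiation, chosen after its values were seen, was highest elsewhere, at 9.09, 16.3 and 0.877 CPM against 0.104 to 6.20 CPM, with 2.43 (SE 0.50, adjusted p = 3.92e-04), and 1.62 (adjusted p = 0.113) without tumour 26.2. Of 11 adipocyte genes Fabp4 alone was called, against 4.41% of all genes tested called higher, and the list median was 1.18.

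Markers of blood vessels, fibroblasts and immune cells were counted list by list. None of 12 endothelial, 8 pericyte, 18 T and NK cell, 10 dendritic cell or 24 interferon response genes was called by edgeR, with 0, 2, 0, 2 and 0 at an unadjusted p under 0.05. DESeq2 called 2 of the pericyte genes and limma none, and neither called a gene of the other 4 lists. By edgeR 1 of 16 fibroblast genes, 1 of 14 macrophage genes and 2 of 12 neutrophil and mast cell genes were called, all higher, against 4.41% of all genes tested. By DESeq2 0, 2 and 0 of these were called. The list medians of log2 fold change were -0.02, -0.90, -0.50, -0.33 and 0.02 for the first 5 lists and 0.50, 0.42 and 1.47 for the others. Of 10 B and plasma cell genes 1 was called by edgeR, higher, against 4.41% of all genes tested, and none by limma or DESeq2. That gene alone had a log2 fold change above 0, and the list median was -2.36. Run 2749 against run 2459 within KB2P gave this list a median of -1.85. All 8 pericyte genes had a log2 fold change below 0, between -1.57 and -0.52, and their summed level was 455.0, 663.8 and 528.0 CPM against 495.1 to 2561 CPM. The macrophage gene was Cd14, a co-receptor for lipopolysaccharide, at 245.5, 55.5 and 227.0 CPM against 3.99 to 165.0 CPM (median 29.9). Its log2 fold change of 2.15 (SE 0.55, adjusted p = 6.44e-03) was 1.84 (adjusted p = 0.105) without tumour 7.2 and 1.93 (adjusted p = 0.0796) without tumour 52. Whether such cells had a part in Tlr4 and Il1rl1 was not tested. The summed macrophage markers stood at 1624, 890.3 and 1521 CPM against 318.3 to 2954 CPM, and the neutrophil and mast cell markers at 858.6, 249.9 and 101.3 CPM against 41.7 to 825.7 CPM.

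Stress and translation genes followed 2 patterns. Srxn1, the sulfiredoxin that repairs oxidised peroxiredoxins and a target of NRF2, stood at 30.6, 15.3 and 56.5 CPM against 2.62 to 20.9 CPM (median 6.99). It was the 1 gene called among 16 NRF2 targets, against 4.41% of all genes tested called higher, and the list median was 0.47. Srxn1 had a log2 fold change of 1.99 (SE 0.44, adjusted p = 1.30e-03, edgeR) that was 1.43 (adjusted p = 0.129) without tumour 52. Of 13 translation factors 6 were higher, against 4.41% of all genes tested, and none lower, with a median of 0.53, but 5 of the 6 (Btf3, Eef1a1, Eef1g, Pabpc1 and Tpt1) have close copies, which leaves Naca. Naca itself lay just under the limit for close copies. A fraction of 0.0822 of its transcript windows occurred in another gene, where the limit, set after the data were seen, was 10%. Of 20 hypoxia and glycolysis genes 2 were higher, against 4.41% of all genes tested. These were Gapdh (3.23) and Pgk1 (1.85), both with many copies in the genome.

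The longest raised stretch of an L1363P tumour was on chromosome 15 in tumour 7.2. Regions were sought, by a rule chosen after values were seen and without a test, as runs of at least 11 neighbouring expressed genes whose running median of 11 log2 ratios to the KB2P median was at least 1. In tumour 7.2 such a run covered 75 genes from Selenop to Eny2, chr15:3268547-44438256 of GRCm38, with a median log2 ratio of 1.85. The same genes had medians of 0.34 and 0.06 in tumours 26.2 and 52, and between -0.26 and 0.80 in the 23 KB2P tumours. KB2P tumour 8 had a shorter higher stretch inside this one, chr15:34572799-42676977, of 16 genes with a median log2 ratio of 1.25, which held 10 of the held genes. Of the 75 genes 58 were above every KB2P tumour in tumour 7.2, and 24 were held higher genes. Chromosome 15 as a whole had 28 of the 142 held higher genes (19.7%) but 3.97% of the genes eligible.

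Single genes of the stretch show its size. Rictor, the defining subunit of mTOR complex 2, stood at 409.6, 99.3 and 96.6 CPM against 65.6 to 125.7 CPM (median 88.2), and Golph3, a Golgi phosphoprotein known as an oncogene, at 930.4, 231.3 and 200.9 CPM against 107.8 to 314.9 CPM (median 168.7). In each, tumour 7.2 was far above KB2P and the other 2 tumours were inside its range. Their log2 fold changes of 1.10 and 1.33 (adjusted p = 1.70e-04 and 1.93e-04, edgeR) were 0.06 and 0.26 without tumour 7.2. Nipbl, the cohesin loader, stood at 801.7, 250.9 and 218.4 CPM against 95.6 to 262.8 CPM, with 1.34 (adjusted p = 1.56e-06) and 0.49 (adjusted p = 0.245) without tumour 7.2.

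Secreted factors and receptors of the stretch included genes near silence elsewhere. Rspo2, an R-spondin that amplifies Wnt signals (chr15:43020794-43170826), stood at 163.9, 0.0648 and 0.0675 CPM against at most 0.715 CPM in KB2P, where 14 of 23 libraries had no count and all had 23 counts together. Its log2 fold change of 9.23 (SE 1.29, adjusted p = 1.50e-07, edgeR) was -0.29 (adjusted p = 0.966) without tumour 7.2, and KP tumours reached 11.3 CPM. Angpt1, the angiopoietin ligand of the Tie2 receptor, stood at 127.9, 11.8 and 1.28 CPM against 0.352 to 14.6 CPM (median 1.87), with 3.97 (SE 0.62, adjusted p = 2.64e-06) and 1.13 (adjusted p = 0.493) without tumour 7.2. Ghr, the growth hormone receptor, stood at 190.9, 98.3 and 7.76 CPM against 4.09 to 59.5 CPM, so that 2 tumours exceeded KB2P. The same was seen for Selenop, the plasma selenium carrier, at 940.6, 431.5 and 100.3 CPM against 59.8 to 302.8 CPM, and for Prkaa1, a catalytic subunit of AMP-activated kinase, at 282.2, 148.4 and 81.0 CPM against 43.8 to 114.4 CPM. Without tumour 7.2 the log2 fold changes were 1.21 (2.11 with it) for Ghr, 0.81 (1.69) for Selenop and 0.75 (1.32) for Prkaa1, none passing. Except for Rspo2 and Angpt1, the genes of the 2 paragraphs on the stretch were chosen after their values were seen.

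Among 27 Wnt pathway genes 2, Rspo2 and Wnt2, were called, both higher, against 4.41% of all genes tested. Wnt2, a Wnt ligand on chromosome 6, stood at 0.482, 1.43 and 1.28 CPM against 0 to 0.437 CPM, above every KB2P tumour in 3 of 3, a log2 fold change of 2.72 (adjusted p = 6.63e-03, edgeR), and was not held. The list median was -0.81 against -0.13 over all genes tested.

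**Figure D4:**
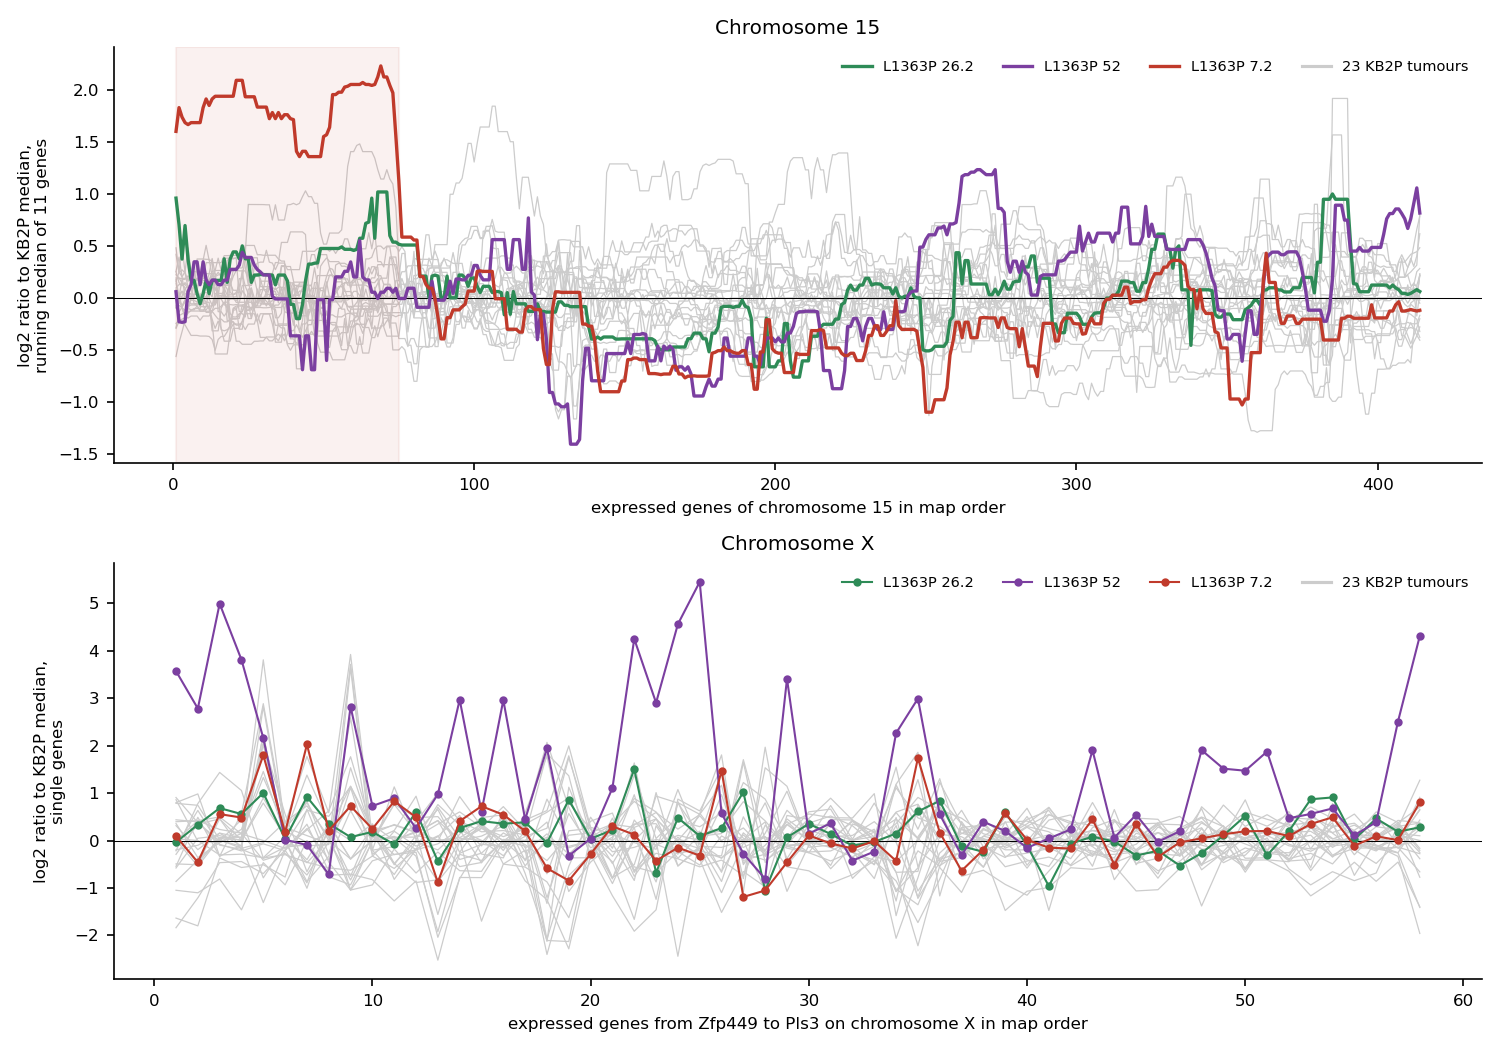
Top, running median over 11 genes of the log2 ratio to the KB2P median along chromosome 15, with the 75-gene stretch of tumour 7.2 shaded (median 1.85). Bottom, log2 ratios of single genes between Zfp449 and Pls3 on chromosome X, where tumour 52 alternates between raised and unraised neighbours. Grey lines are the 23 KB2P tumours.

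A further pattern, on chromosome X in tumour 52, was broken rather than even. The interval given here was chosen after the values were seen, with its ends at held higher genes and not by the rule for stretches. Its counts are therefore partly fixed by that choice. Between Zfp449 and Pls3 (chrX:56346400-75875182) 58 genes were expressed, and tumour 52 was above every KB2P tumour in 24 of them, tumours 7.2 and 26.2 in 3 each. In 17 genes tumour 52 exceeded the KB2P median at least 4-fold, while the median log2 ratio over the 58 was 0.59, since raised and unraised genes lay side by side. Haus7, a subunit of the spindle augmin complex, stood at 20.9, 28.1 and 1192 CPM against 17.6 to 41.0 CPM (median 26.3), and Mmgt1, a subunit of the membrane protein insertase EMC, at 109.2, 119.3 and 2381 CPM against 41.7 to 201.5 CPM (median 73.9). The edgeR log2 fold changes of 3.89 (SE 0.34, adjusted p = 1.54e-14) and 3.45 (SE 0.28, adjusted p = 6.35e-16) were -0.18 and 0.53 without tumour 52.

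A further 3 genes of that interval were among the 15 largest rises. Zfp275, a zinc finger gene, stood at 46.7, 72.7 and 1247 CPM against 8.75 to 110.4 CPM, and Zfp185, an actin-binding LIM protein, at 24.7, 65.9 and 447.4 CPM against 5.27 to 72.2 CPM. Pls3, the actin bundler plastin, stood at 184.1, 127.7 and 2105 CPM against 26.3 to 255.1 CPM. Tumour 52 alone exceeded KB2P in all 3. Without tumour 52 the log2 fold changes, 2.97, 2.77 and 2.82 in that order, were 0.04, 0.79 and 0.46, and none passed. In KP, Pls3 reached 1603 CPM and Zfp275 reached 263.9 CPM.

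A smaller interval of chromosome 16 was also raised most in tumour 52, but more evenly. There 6 of its 9 expressed genes exceeded the KB2P median at least 4-fold in tumour 52, against 17 of 58 on chromosome X. The ends of this interval too were set at held higher genes after the values were seen. Of 9 expressed genes from Hspa13 to Gabpa (chr16:75745431-84863779) 6 were held higher, against 1.02% of all genes eligible, a count partly fixed by that choice. The median log2 ratio in tumour 52 was 2.06 against 0.49 and 0.69 in tumours 7.2 and 26.2 and at most 0.55 in KB2P. Hspa13, a microsomal chaperone, stood at 77.4, 109.8 and 622.0 CPM against 31.7 to 118.9 CPM, and Nrip1, a corepressor of nuclear receptors, at 106.9, 135.9 and 599.5 CPM against 17.0 to 172.5 CPM. Usp25, a deubiquitinase, stood at 157.0, 213.7 and 489.1 CPM against 52.5 to 171.5 CPM, so that tumour 26.2 also exceeded KB2P. Without tumour 52 the log2 fold changes of 2.13, 1.78 and 1.58 (adjusted p = 5.33e-09, 9.79e-04 and 1.77e-06, edgeR) were 0.60, 0.57 and 0.95, and only that of Usp25 still passed (adjusted p = 0.0409). These 3 genes were chosen after their values were seen.

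Tumour 26.2 had an even stretch on chromosome 4. It covered 31 genes from P3h1 to Cdca8 (chr4:119232915-124939311) with a median log2 ratio of 1.13, against 0.18 and 0.15 in tumours 7.2 and 52 and -0.52 to 0.50 in KB2P. Of its genes 3 were held, all chosen for mention after their values were seen. Exo5, a single-strand exonuclease, stood at 26.2, 73 and 27.6 CPM against 14 to 30.7 CPM, and its log2 fold change of 1.00 (adjusted p = 5.80e-03, edgeR) was 0.36 without tumour 26.2. Ppt1, the lysosomal palmitoyl thioesterase, stood at 155.8, 207.1 and 91.4 CPM against 38.5 to 100.0 CPM, and Zmpste24, the protease that matures lamin A, at 118.7, 241.4 and 113.4 CPM against 34.8 to 114.1 CPM. Ppt1 still passed without tumour 26.2 (0.97 against 1.26, adjusted p = 6.10e-03) and Zmpste24 did not (0.95 against 1.39, adjusted p = 0.0664).

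A further 3 higher stretches of L1363P tumours held none of the held genes. Tumour 7.2 had 11 genes with a median log2 ratio of 1.61 at chr6:18170687-24528013, where KB2P tumours stood between -0.70 and 0.49. Tumour 26.2 had 15 genes with a median of 1.10 at chr12:57230427-69179009, where the highest KB2P tumour stood at 2.01. Tumour 52 had 12 genes with a median of 1.22 at chr15:83125976-84217267, where the highest KB2P tumour stood at 0.97. Such stretches were common in all groups. At least 1 higher stretch was found in 3 of 3 L1363P tumours (at most 2 in a tumour), in 20 of 23 KB2P tumours (at most 9) and in 5 of 5 KP tumours (at most 11). Of the 142 held higher genes 27 (19%) lay in a stretch of an L1363P tumour and 115 outside. With the sign reversed, the same rule also gave lower stretches in each of the 3 L1363P tumours and in tumours of KB2P and KP. Zfp771 and Nr2f6 lay in lower stretches of tumour 7.2 (chr7:126850960-127254803 and chr8:71366848-71690575, median log2 ratios -1.1 and -1.19). Crocc lay in a lower stretch of tumour 52 (chr4:140514485-141204062, -1.17). These genes were below KB2P in all 3 tumours. Counting genes above all 23 KB2P tumours in 1 L1363P tumour alone, 40 of the held higher genes were so in tumour 7.2, of which 21 were on chromosome 15, 7 in tumour 26.2, and 28 in tumour 52, of which 12 were on chromosome X and 3 on chromosome 16. DNA copy number was not analysed here.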

How the data were processed

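Libraries were stranded and made from poly(A) RNA of the tumours, per the labels' protocols. The authors deposited raw read counts per gene for 39438 symbols and a table of log2 normalized counts. The build mm10 and the tools STAR 2.7.3a, cutadapt 2.10 and featureCounts 2.0.0 are listed in the submitters' processing notes without settings. GENCODE M21 names matched 39182 symbols (99.4%), and 24 symbols had been turned into dates and were left so.

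The deposited counts of all 73 libraries were fitted as 8 groups in edgeR 4.0.16 (R 4.3.3) with TMM scaling, the filterByExpr filter (minimum count 10) and the quasi-likelihood test with Benjamini-Hochberg adjustment over all 18492 genes. All groups share 1 estimate of spread. A fit with KB2P split by run (10 groups) gave the values against runs 2459 and 2749. The script was tested on simulated data. SE is the log2 fold change divided by the root of the F statistic. No 2 of the 26 libraries were identical, and the closest pair differed by a chi-square of 35.1 per degree of freedom, above sampling noise.

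Close copies were genes with at least 10% of the 31-base windows of their longest transcript in another gene, or members of fixed symbol families. The share of 10% was set after the data were seen, in place of a planned protein rule whose table was not used here. The text names Brca1, Brca2, Palb2, Trp53 and Bard1, up to 15 held protein-coding genes per direction with the largest changes (mean log2 CPM of at least 1), and up to 4 held members of each of 44 lists. Regions used a pseudocount of 1 CPM and 10282 genes with a mean of at least 5 CPM. The members and lists were chosen with earlier results of these data known. Alternatives were RLE scaling, TMM without ribosomal, mitochondrial and haemoglobin genes, no filter, the 26 libraries alone, leaving out tumours or runs, other rules for copies and fold, limma 3.58.1 on the deposited log2 values, DESeq2 1.42.0 and, added after the data were seen, a GC offset per library (lowess span 0.3). A few genes are not reported here.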

Additional observations from a re-analysis of the deposited data

Results flagged for a closer look

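A pair of values stood apart within the 5 KP adenocarcinomas of run 5625, among 18 genes examined on the log2 scale after 1 CPM was added. Nr1h5 reached 265.6 CPM in KP tumour 131.03A, where its gap to the next tumour was 0.802 of the group's range, against a critical value of 0.71. Rspo2 reached 11.3 CPM in KP tumour 90.01A, with a gap of 0.904 of the range. About 1 group in 20 passes this limit by chance, and the KP medians of 10.6 CPM for Nr1h5 and 0.208 CPM for Rspo2 do not rest on these tumours.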

How the results depend on the processing

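No paired analysis was possible because the L1363P and KB2P tumours share no replicate numbers. Against 1683 called genes, the 26 libraries alone gave 924, leaving out L1363P tumour 7.2, 26.2 or 52 gave 863, 963 or 899, leaving out KB2P tumour 24 or 26 gave 1677 or 1685, the GC offset gave 1058, limma gave 1637 (597 higher, 1040 lower) and DESeq2 gave 2254 (711 higher, 1543 lower). Without tumour 7.2, 58.6% of calls were higher against 48.5%. Against 391 held genes, the 26 libraries alone gave 233, leaving out L1363P tumour 7.2, 26.2 or 52 gave 209, 281 or 252, leaving out KB2P tumour 24 or 26 gave 378 or 392, the GC offset gave 171, keeping close copies and unnamed models gave 619, and limma, DESeq2 and no filter gave 370 (80 higher), 566 (127 higher) and 314 (151 higher). A limit of 50% of windows for close copies gave 477 held genes (207 higher). Run 2749 against run 2459 gave 1250 genes and 664 with the GC offset. L1363P against KP gave 12 genes, 7 with RLE scaling, 21 without the filter, 34 in the 29 libraries of run 5625 and 11 to 54 when 1 tumour was left out. Signs changed without tumour 7.2 for Palb2 (-0.17), Bard1 (0.085) and Rspo2 (-0.29), without tumour 52 for Brca2 (-0.26) and Haus7 (-0.18), against run 2749 alone for Bard1 (0.054), and with the GC offset for Brca2 (-0.17), none of them passing, while Brca2 reached 0.16 and Haus7 stood at 3.87 without KB2P tumour 26. Of 86 genes examined singly that passed, 56, 67 and 60 still passed without tumour 7.2, 26.2 and 52, and 72 with the GC offset. With 3 tumours that differ this much, single genes below about 1 CPM rest on few counts.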
